A study of Homo sapiens with 6 samples.

Results

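Serum response factor (SRF) and 9 genes of the contractile actin apparatus were followed in T24 cells, an established human bladder cancer cell line, with and without knockdown of UBC9, the conjugating enzyme that attaches SUMO to proteins. The 10 genes, ACTA2, ACTG2, TAGLN, CNN1, CNN2, CALD1, MYL9, TPM1, TPM2 and SRF, were chosen by symbol and were all listed among the 58174 genes of each sample. Cells of the shRNA-UBC9 group stably carried 1 lentiviral shRNA against UBC9, and cells of the shRNA-NC group carried a scrambled control shRNA. Infected cells were selected with puromycin. The vector is named only for the shRNA against UBC9, so whether the control shRNA shared it is not stated. Poly(A) RNA was sequenced from 3 samples of each group. With a single shRNA sequence, an effect of the UBC9 knockdown cannot be told apart from another effect of that shRNA, and nothing says that the 3 samples of a group came from separate infections, so the p-values measure only the spread between these samples.

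SRF is a transcription factor that binds the CArG box, a short DNA element with CC at one end, GG at the other and A or T between them. It serves 2 classes of target. With the cofactors MRTFA, MRTFB or myocardin, which respond to the pool of actin monomers, it drives genes of the contractile cytoskeleton, and with the ternary complex factors ELK1, ELK3 and ELK4, which respond to MAP kinase signalling, it drives immediate early genes such as EGR1 and FOS. The contractile genes are known best from smooth muscle and from myofibroblasts, and cultured epithelial cancer cells also use several of them for stress fibres and movement.

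The CArG boxes of the RefSeq promoters (GRCh38.p14, 250 bases before to 50 after a start) are shown first because the CArG box is the element that SRF binds. The search took CC, 6 bases of A or T, and GG as an exact box, and allowed 1 of the inner bases to be C or G in a near match. This pattern reads the same on both strands. An exact box was in 3 of the 8 genes with a promoter in the table, CNN2, ACTG2 and SRF, and an exact or near box was in 5 of 8, with ACTA2 and CALD1 added. TAGLN and MYL9 were not in the table. Of all 27305 genes in the table, counted in the same way over any of their promoters, 1.6% held an exact box and 9.88% an exact or near one. Of all 35116 promoters, 1.29% held an exact box and 8.13% an exact or near one. The windows run 5′ to 3′ on the strand of the gene, with the box in capitals:
ACTA2, near, box beginning 121 bases before the start, chr10:88952875-88952904: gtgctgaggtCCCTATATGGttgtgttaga
ACTA2, near, 71 bases before the start, chr10:88952825-88952854: tgtctttgctCCTTGTTTGGgaagcaagtg
ACTG2, exact, 110 bases before the start, chr2:73892888-73892917: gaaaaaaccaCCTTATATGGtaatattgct
ACTG2, exact, 73 bases before the start, chr2:73892925-73892954: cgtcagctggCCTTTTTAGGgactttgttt
CNN2, exact, 89 bases before the start, chr19:1026509-1026538: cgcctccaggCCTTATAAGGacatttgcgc
CALD1, near, 26 bases before the start, chr7:134711463-134711492: ccagaggtccCCTAAAGAGGaatacattct
SRF, exact, 30 bases before the start, chr6:43171229-43171258: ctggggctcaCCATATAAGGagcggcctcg
SRF, exact, 10 bases before the start, chr6:43171249-43171278: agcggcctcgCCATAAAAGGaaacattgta
The CALD1 window lies before a RefSeq start that is upstream of the gene as GENCODE annotates it, chr7:134744252-134970729. A match describes these letters and is no evidence of binding, and where no box was found only these bases around a RefSeq start were searched.

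Levels are given in RPKM, reads scaled to gene length and to mapped reads, as the authors deposited them. The RPKM steps gave whole reads for 100% of the 12428 tested genes (within 0.01 of a whole number), and these reads summed to between 26011973 and 32835357 in a sample, with the groups overlapping. Of the 10 genes, 8 reached the filter of 0.5 RPKM in at least 3 samples, and ACTG2 and CNN1 did not. Fold changes are shRNA-UBC9 against shRNA-NC on the log2(RPKM + 0.1) scale, which understates changes of low genes. A gene was called at an adjusted p below 0.05 in limma over all tested genes, and called a DEG when its log2 fold change was also above 1 in size.

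Libraries differed within groups in traces of transcripts best known from other tissues. The source of these traces is unknown. ACTA1 and CKM of skeletal muscle, HBB of red cells and CD3E and PTPRC of leukocytes were listed at 0 in shRNA-NC replicate 1 and shRNA-UBC9 replicate 3, and were between 0.0629 and 1.02 RPKM in the other 4 libraries. In all, 69 genes were at 0 in that pair and above 0.05 RPKM in the other 4, beside 2 to 21 genes for any other pair. One such library was in each group. With the other 4 libraries alone, the same 3 of the 10 genes were called, and their values without the pair stand beside each result.

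In the knockdown, ACTA2, CALD1 and TAGLN fell, to 33.4%, 41.2% and 67.5% of their shRNA-NC means. The other 5 tested genes did not pass the test, and SRF itself was among them. Thus 3 of 8 tested genes were called, all lower, beside 36.8% of all tested genes called in either direction and 18% called lower, so the share of the 8 that moved was near that of all genes. ACTA2 reached the filter through shRNA-NC, where it was high, since only replicate 1 of shRNA-UBC9 was at 0.5 RPKM or more. Its place in these counts therefore leans on the filter, and apart from it only CALD1 and TAGLN were called. Without the filter ACTA2 was also called (limma adjusted p = 0.023). Limma called 0 of the 8 higher, with 0 at an unadjusted p below 0.05 and 0 by voom on the recovered reads. ACTA2 and CALD1 were also DEGs, beside 7.89% of all tested genes that were DEGs, 2.7% lower and 5.2% higher. In 5 of the 8, ACTA2, CALD1, TAGLN, CNN2 and TPM2, every knockdown sample was below every control, and in none was every one above. The groups did not overlap for 51.1% of all tested genes, with 25.4% lower and 25.7% higher in the knockdown. The median log2 fold change of the 8 genes was -0.25, and that of all tested genes was 0.005.

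**Figure D1:**
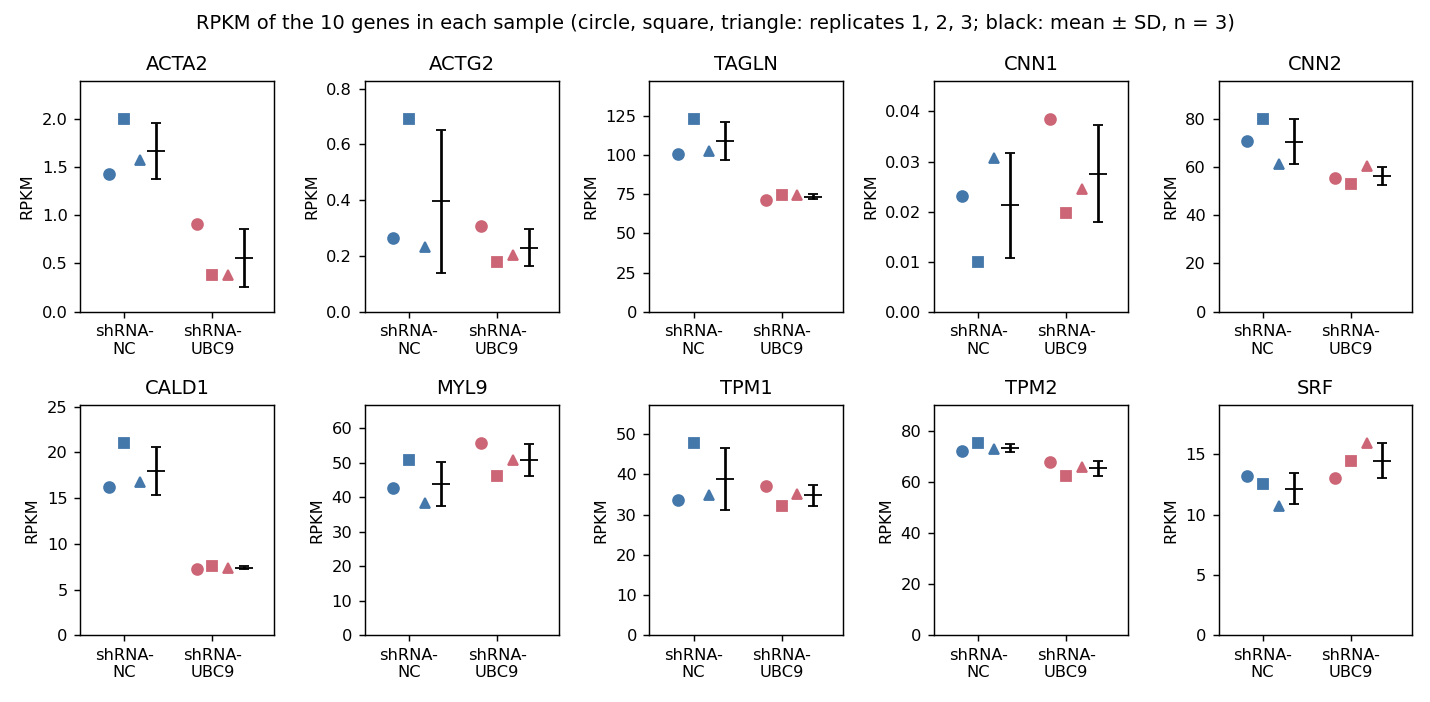
RPKM (vertical axes, each from 0) of the 10 genes in the 3 shRNA-NC (blue) and 3 shRNA-UBC9 (red) samples, with circle, square and triangle for replicates 1, 2 and 3 and black bars for the mean ± SD. ACTA2, TAGLN, CNN2, CALD1 and TPM2 show every red point below every blue point, and shRNA-NC replicate 2 (blue square) is the highest blue point for 8 of the 10 genes.

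CALD1 encodes caldesmon, which binds actin and tropomyosin and restrains the myosin ATPase. It was 16.2, 21.0 and 16.8 RPKM in shRNA-NC and 7.29, 7.57 and 7.36 RPKM in shRNA-UBC9. The knockdown samples lay close together and far below the lowest control. The mean went from 18.0 ± 2.62 to 7.41 ± 0.146 RPKM (SD, n = 3 per group), a log2 fold change of -1.26 ± 0.11 (SE, limma adjusted p = 0.00017). This rested on 2045 to 7156 reads a sample. CALD1 was called in each of 16 alternative analyses, with log2 fold changes from -1.33 to -1.14, and it was -1.33 with the 4 libraries alone.

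ACTA2 (chr10:88935074-88991339, minus strand) encodes smooth muscle alpha-actin, the actin used as a mark of smooth muscle and myofibroblasts. It was low in these cells, at 1.43, 1.99 and 1.57 RPKM in shRNA-NC, and 0.904, 0.381 and 0.381 RPKM in shRNA-UBC9. All 3 knockdown samples were below all controls, but shRNA-UBC9 replicate 1 was more than 2 times as high as the other two. The mean fell from 1.66 ± 0.291 to 0.555 ± 0.302 RPKM (SD, n = 3 per group), and the log2 fold change was -1.51 ± 0.30 (SE, 95% interval -2.19 to -0.82, limma adjusted p = 0.0057).

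The ACTA2 values stood for 127, 205 and 158 reads in shRNA-NC and for 97, 40 and 32 in shRNA-UBC9. It was called in all 15 alternatives in which it could be tested. Its size depended on the pseudocount, from -0.79 with a pseudocount of 1 to -1.67 with 0.01. It was -1.86 without shRNA-UBC9 replicate 1 and -1.43 with the 4 libraries alone. Coding sequences of the 6 actin genes are nearly identical, and how reads matching several of them were placed is not stated.

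Exons of ACTA2 overlap those of FAS, which encodes a death receptor and lies on the opposite strand, over 387 bases, or 6.9% of the exon bases of ACTA2 in GENCODE 44. Whether the libraries kept strand is not stated. FAS was 3.18, 4.76 and 3.44 RPKM in shRNA-NC and 3.03, 1.33 and 0.967 RPKM in shRNA-UBC9, and it fell too (log2 fold change -1.19 ± 0.36 SE, limma adjusted p = 0.032), a call lost without the filter on low values (limma adjusted p = 0.087). The ratio of ACTA2 to FAS was 0.449, 0.418 and 0.456 in shRNA-NC and 0.299, 0.286 and 0.394 in shRNA-UBC9. The ratio was lower in every knockdown sample than in every control, and both genes were highest in shRNA-UBC9 replicate 1 among the knockdown samples. How many reads of the shared bases were counted to either gene was not tested. The antisense RNA ACTA2-AS1, which covers 1638 exon bases of ACTA2, was between 0 and 0.0316 RPKM. An unnamed long non-coding RNA on the same strand shares 401 bases with ACTA2, 7.1% of its exon bases, and the level of that RNA was not examined.

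**Figure D2:**
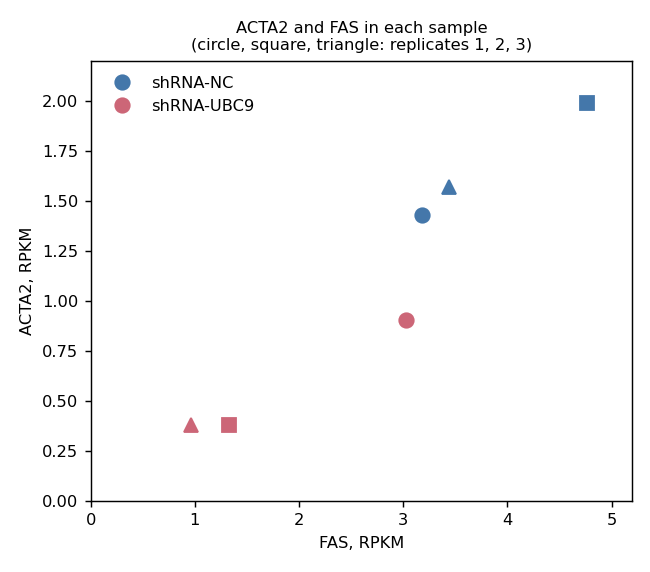
ACTA2 (vertical axis, RPKM) against FAS (horizontal axis, RPKM), each point 1 sample, blue for shRNA-NC and red for shRNA-UBC9, with circle, square and triangle for replicates 1, 2 and 3. shRNA-UBC9 replicate 1, at 0.904 RPKM of ACTA2 and 3.03 RPKM of FAS, lies between the controls and the other knockdown samples.

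TAGLN (chr11:117199370-117207464, plus strand) encodes transgelin, or SM22, an actin bundling protein of the calponin family and a standard readout of SRF with its MRTF cofactors. It had the highest RPKM of the 10 genes, at 100.9, 122.6 and 102.7 RPKM in shRNA-NC and 71.3, 74.6 and 74.3 RPKM in shRNA-UBC9. The knockdown samples lay close together, shRNA-NC replicate 2 was well above the other controls, and the groups did not overlap. The mean fell from 108.7 ± 12.1 to 73.4 ± 1.79 RPKM (SD, n = 3 per group), with a log2 fold change of -0.56 ± 0.10 (SE, limma adjusted p = 0.0030).

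TAGLN was called in all 16 alternatives, from -0.63 to -0.47, and was -0.62 with the 4 libraries alone. Its exons overlap an unnamed GENCODE entry on the same strand over 2498 bases, 38.1% of its exon bases, and the level of that entry was not examined. They also overlap PCSK7, a protease gene on the opposite strand, over 2233 bases, 34.1% of the exon bases of TAGLN. PCSK7 was 3.15, 3.16 and 2.91 RPKM in shRNA-NC and 3.57, 3.58 and 3.69 RPKM in shRNA-UBC9, much lower than TAGLN and not lower in the knockdown.

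CNN2 (chr19:1026586-1039068, plus strand) encodes calponin 2, an actin-binding calponin that non-muscle cells use as well. It was 70.6, 79.6 and 61.2 RPKM in shRNA-NC and 55.3, 52.8 and 60.2 RPKM in shRNA-UBC9. The groups did not overlap, but shRNA-NC replicate 3 lay just above shRNA-UBC9 replicate 3. CNN2, with a log2 fold change of -0.32 ± 0.11 (SE, 95% interval -0.58 to -0.07), just missed the threshold (limma adjusted p = 0.052). It passed in 4 of 16 alternatives, and without shRNA-NC replicate 3 it was -0.42 (limma adjusted p = 0.033).

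Tropomyosins lie along the actin filament and set which proteins can bind it. TPM2 (chr9:35681992-35690056, minus strand) was 72.1, 75.2 and 72.8 RPKM in shRNA-NC and 67.8, 62.2 and 65.9 RPKM in shRNA-UBC9. All knockdown samples were below all controls, yet their mean was 89.0% of the control mean, a log2 fold change of -0.17 ± 0.08 (SE, limma adjusted p = 0.12). TPM1 (chr15:63042620-63071915, plus strand) was 33.7, 47.7 and 34.9 RPKM in shRNA-NC and 37.1, 32.0 and 35.2 RPKM in shRNA-UBC9. Its groups overlapped, and only shRNA-NC replicate 2 stood above the rest. The difference in TPM1, on the log2 scale, was -0.14 ± 0.14 (SE, limma adjusted p = 0.46) and became 0.02 without that library.

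MYL9 (chr20:36541497-36551447, plus strand) encodes a regulatory light chain of smooth muscle and non-muscle myosin. It was 42.5, 50.7 and 38.2 RPKM in shRNA-NC and 55.6, 46.2 and 50.6 RPKM in shRNA-UBC9. The groups overlapped, and the log2 fold change of 0.22 ± 0.12 (SE, 95% interval -0.06 to 0.50, limma adjusted p = 0.19) had the opposite sign to that of ACTA2, CALD1 and TAGLN.

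SRF (chr6:43171269-43181506, plus strand) was 13.2, 12.5 and 10.7 RPKM in shRNA-NC and 13.0, 14.4 and 15.9 RPKM in shRNA-UBC9. Its lowest knockdown sample lay within the control range and the other two lay above it. The log2 fold change was 0.24 ± 0.11 (SE, 95% interval -0.02 to 0.50, limma adjusted p = 0.13), and it stayed uncalled and above 0 in all 16 alternatives, from 0.16 to 0.32. The interval does not reach a fall in SRF mRNA of more than 0.02 on the log2 scale.

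ACTG2 and CNN1, the genes of the group most tied to differentiated smooth muscle, were very low. ACTG2, smooth muscle gamma-actin, was 0.264, 0.689 and 0.233 RPKM in shRNA-NC and 0.306, 0.179 and 0.205 RPKM in shRNA-UBC9, on 22 to 91 reads a sample. Only shRNA-NC replicate 2 stood apart. CNN1, calponin 1, had 2, 1 and 3 reads in shRNA-NC and 4, 2 and 2 in shRNA-UBC9, at most 0.0384 RPKM. Neither gene was called when the filter was dropped, with limma adjusted p-values of 0.45 for ACTG2 and 0.70 for CNN1.

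**Figure D3:**
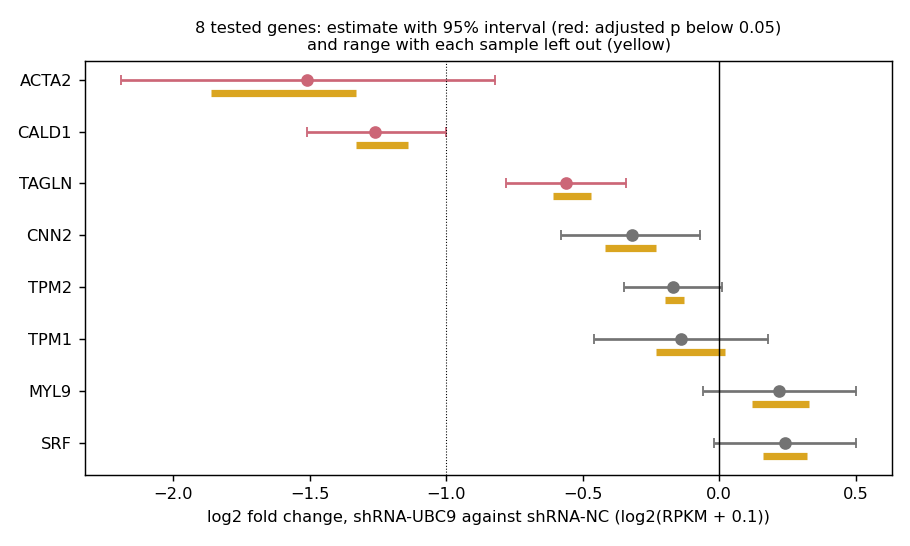
Log2 fold change, shRNA-UBC9 against shRNA-NC, of the 8 tested genes on the log2(RPKM + 0.1) scale, as the limma estimate with its 95% interval (red where the adjusted p was below 0.05) and, in yellow, the range of estimates with each sample left out in turn. ACTA2, CALD1 and TAGLN are red and stay below 0 throughout, and TPM1 reaches 0.02.

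Because RPKM is per length, levels can be set side by side. In shRNA-NC the order of the means was TAGLN, TPM2, CNN2, MYL9, TPM1, CALD1, SRF, ACTA2, ACTG2 and CNN1. TPM2 was above CNN2 in shRNA-NC replicates 1 and 3 and below it in replicate 2, so this pair could not be ordered there. The RPKM of MYL9 was above that of TPM1 within each of the 6 libraries. In shRNA-UBC9 the order of the means was the same except that SRF, at 14.4 ± 1.47 RPKM, stood above CALD1, at 7.41 ± 0.146 RPKM (SD, n = 3). SRF and CALD1 did not overlap in either group. CNN2 and MYL9 could not be ordered in shRNA-UBC9, since in replicate 1 MYL9, at 55.6 RPKM, was above CNN2, at 55.3 RPKM. Across samples, shRNA-NC replicate 2 was the highest control for 8 of the 10 genes, beside 41.2% of all tested genes, and the tested members lay a median of 0.20 above their control means there on the log2 scale.

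Within families, the share of the summed RPKM shows how a member moved against its relatives. How large a share is depends on the gene lengths used, which are not stated. With 3 samples per group, 0.1 is the smallest two-sided p that exact permutation allows, so no share could pass 0.05. TAGLN made up 18.6% ± 2.12 of the calponin and transgelin RPKM in shRNA-NC and 15.4% ± 0.657 in shRNA-UBC9 (SD, n = 3, exact permutation p = 0.1), with no overlap. The difference of -3.15 percentage points was -1.93 without shRNA-NC replicate 2. The ubiquitous TAGLN2 took up 53.8% ± 3.93 and 63.6% ± 2.37 (exact permutation p = 0.1), although its own RPKM was not called (limma adjusted p = 0.70). CNN3, the acidic calponin, went from 15.6% ± 0.762 to 9.18% ± 1.02 (exact permutation p = 0.1). CNN2 held 12.0% ± 1.57 and 11.8% ± 0.949 (exact permutation p = 1.0). When TAGLN2 was left out of the family, the shares of TAGLN and CNN2 were instead 2.28 and 6.38 percentage points higher in shRNA-UBC9.

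Among tropomyosins, TPM1 held 11.8% in each group and TPM2 held 22.4% ± 0.529 in shRNA-NC and 22.1% ± 0.319 in shRNA-UBC9 (SD, n = 3, exact permutation p = 0.6). Without TPM4 in the family, the share of TPM2 was 2.2 percentage points higher in shRNA-UBC9. The share of TPM4 was 35.9% ± 1.18 and 40.4% ± 1.77 (exact permutation p = 0.1). MYL9 held 9.15% ± 1.35 of the regulatory myosin light chains in shRNA-NC and 8.87% ± 1.08 in shRNA-UBC9 (exact permutation p = 0.8). Of the actins, ACTB and ACTG1 made up nearly all, and ACTA2 only 0.0622% ± 0.0155 in shRNA-NC and 0.0236% ± 0.0142 in shRNA-UBC9 (exact permutation p = 0.1).

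**Figure D4:**
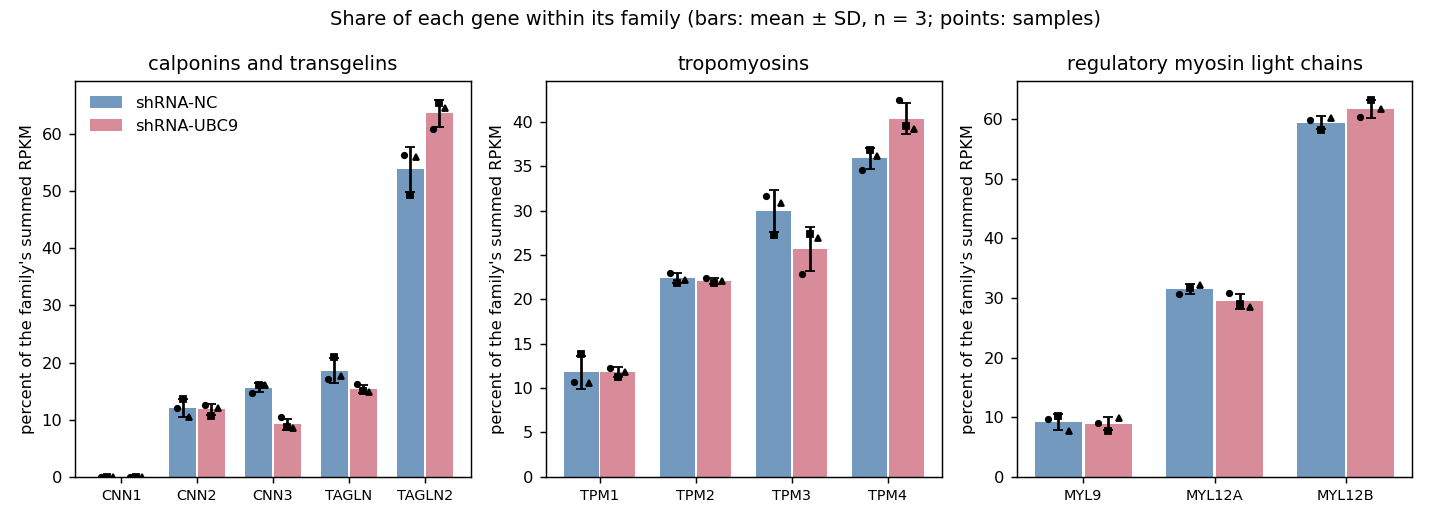
Percent of the family's summed RPKM (vertical axes, from 0) held by each calponin or transgelin, tropomyosin and regulatory myosin light chain, with bars for the mean of 3 samples in shRNA-NC (blue) and shRNA-UBC9 (red), error bars for the SD and points for samples (circle, square, triangle for replicates 1, 2, 3). TAGLN and CNN3 have lower shares and TAGLN2 and TPM4 higher shares in shRNA-UBC9, while the samples of the groups overlap for CNN2, TPM1, TPM2 and MYL9.

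Partners of these genes in the same apparatus were called in both directions. Of 35 listed genes of actin filaments, myosin, focal adhesions and known SRF target groups, 29 were tested, 4 were called lower, 3 higher and 22 not, beside 18% of all tested genes called lower and 18.8% higher, and the median log2 fold change was -0.05. CNN3, a calponin relative, fell from 91.3 ± 3.84 to 43.6 ± 1.87 RPKM (SD, n = 3 per group, log2 fold change -1.07, limma adjusted p = 7.5e-05). VCL, the focal adhesion protein vinculin, fell by 0.68 on the log2 scale, MYH10, a non-muscle myosin heavy chain, fell by 0.66, and TPM3 fell by 0.37. TES, the focal adhesion protein testin, rose from 5.73 ± 0.983 to 13.5 ± 4.63 RPKM (log2 fold change 1.19, limma adjusted p = 0.0045). FILIP1L, a filamin interactor, rose by 1.37 and MYL12B by 0.32 on that scale, the latter not called without the filter (limma adjusted p = 0.14). The abundant ACTB, ACTG1, MYH9 and FLNA were not called, with log2 fold changes of -0.09, -0.28, -0.27 and -0.36.

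Upstream of SRF, 23 of 24 listed cofactors and actin regulators were tested, and 4 were called higher, 5 lower and 14 not, with a median log2 fold change of -0.07. The share called was near the 36.8% of all tested genes. MRTFA, listed as MKL1, was 7.78, 6.49 and 6.72 RPKM in shRNA-NC and 6.72, 6.59 and 7.83 RPKM in shRNA-UBC9, with full overlap. MRTFB, listed as MKL2, fell from 3.82 ± 0.215 to 2.22 ± 0.135 RPKM (SD, n = 3 per group, log2 fold change -0.76, limma adjusted p = 0.0010). Myocardin, the smooth muscle cofactor, was at most 0.166 RPKM. The ternary complex factors ELK1, ELK3 and ELK4 were not called, with log2 fold changes of 0.02, -0.09 and -0.17.

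RND3 had the largest log2 fold change among the tested genes of that list. It encodes a small GTP-binding protein known to loosen stress fibres, and it was 16.0, 23.6 and 18.2 RPKM in shRNA-NC and 72.5, 84.0 and 54.6 RPKM in shRNA-UBC9. The lowest knockdown sample was more than 2 times the highest control (log2 fold change 1.86 ± 0.18 SE, limma adjusted p = 0.00029). LIMK1, the kinase that inactivates cofilin, was 8.82, 8.24 and 7.21 RPKM in shRNA-NC and 3.05, 2.78 and 3.73 RPKM in shRNA-UBC9 (log2 fold change -1.32 ± 0.13 SE, limma adjusted p = 0.00028). Its relative LIMK2 rose by 0.37, RHOC by 0.34 and CAP1 by 0.34 on the log2 scale. RHOB fell by 0.70, TMSB4X, which binds actin monomers, fell by 0.54, and the formin DIAPH3 fell by 0.52. Without the filter on low values RHOB, TMSB4X, RHOC and CAP1 were no longer called (limma adjusted p = 0.074, 0.083, 0.064 and 0.066). RHOA, ROCK1 and ROCK2 were not called, with log2 fold changes of -0.17, -0.07 and 0.13.

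The listed immediate early genes mostly moved the other way from ACTA2, CALD1 and TAGLN. Which of them SRF drives in these cells, and with which cofactor, was not tested. Of 11 listed, 9 were tested, 7 were called higher, 1 lower and 1 not. FOS and NR4A1 reached the filter through shRNA-UBC9 alone and so had to differ. Without them 5 of 7 were called higher, beside 18.8% of all tested genes, and the median log2 fold change was 0.96, in place of 1.34 with them. FOSB is still among these 7, although it too needed shRNA-UBC9 to reach the filter. Its values were 0.585, 0.432 and 0.484 RPKM in shRNA-NC and 1.39, 1.41 and 1.42 RPKM in shRNA-UBC9. EGR1, a zinc finger factor, was 1.10, 2.27 and 1.02 RPKM in shRNA-NC and 51.3, 17.8 and 15.9 RPKM in shRNA-UBC9. Every knockdown sample was far above every control, with replicate 1 well above the others (log2 fold change 4.06 ± 0.45 SE, limma adjusted p = 0.00046). Of the 8 listed genes with a promoter in the table, only EGR1 and EGR2 held an exact or near CArG box. The EGR1 promoter held 2 exact boxes, shown because they are the same element as in SRF and ACTG2, which were not called or not tested:
EGR1, exact, box beginning 105 bases before the start, chr5:138465364-138465393: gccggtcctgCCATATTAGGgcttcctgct
EGR1, exact, 83 bases before the start, chr5:138465386-138465415: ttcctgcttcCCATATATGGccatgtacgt

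JUNB, a subunit of AP-1, rose from 12.9 ± 1.89 to 41.1 ± 6.06 RPKM (SD, n = 3 per group, log2 fold change 1.66, limma adjusted p = 0.00014), and FOS, NR4A1 and FOSB rose by 1.94, 1.74 and 1.34 on the log2 scale. CTGF, the matricellular factor CCN2 and a target shared with YAP, fell from 101.5 ± 16.2 to 66.5 ± 13.3 RPKM (log2 fold change -0.62, limma adjusted p = 0.020). That call was lost without the filter (limma adjusted p = 0.056) and also without shRNA-NC replicate 1, shRNA-NC replicate 3 or shRNA-UBC9 replicate 2. CYR61, or CCN1, had a log2 fold change of -0.15 (limma adjusted p = 0.37). EGR2 and EGR3 were not tested, with 3 and 6 reads over the shRNA-NC samples and 74 and 100 over the shRNA-UBC9 samples. Cardiac actin ACTC1 was likewise not tested, with 9 and 120 reads, and each shRNA-UBC9 sample was above each control.

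**Figure D5:**
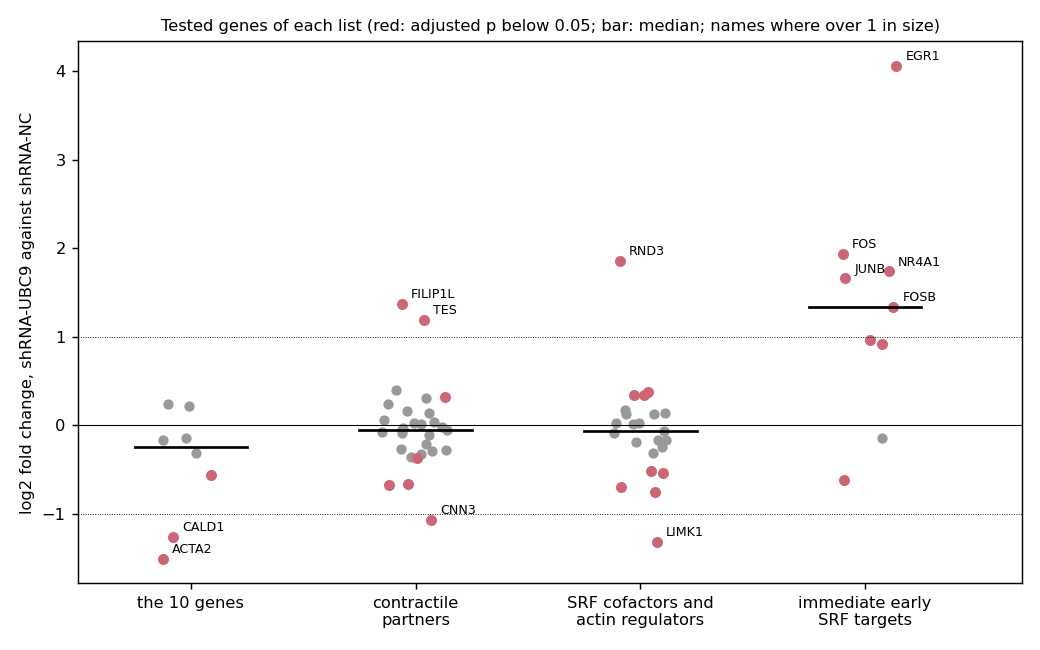
Log2 fold change, shRNA-UBC9 against shRNA-NC (vertical axis, log2(RPKM + 0.1) scale), of the tested genes of 4 lists, with red points for an adjusted p below 0.05, grey for the rest, black bars for medians and names where the change was above 1 in size. The 10 genes have a median of -0.25 over the 8 tested, the partners and the upstream regulators lie around 0 with medians of -0.05 and -0.07, and the immediate early genes have a median of 1.34, or 0.96 without FOS and NR4A1, which reached the filter through shRNA-UBC9 alone. FOSB, which also needed shRNA-UBC9 to reach the filter, is in both medians.

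Genes with a CArG box were called in both directions. Of 132 tested genes with an exact box in a promoter, 19.7% were called higher and 21.2% lower, beside 18.3% and 18.7% of the 9180 tested genes with any promoter in the table. DEGs were 9.85% higher and 3.79% lower among the 132, beside 4.66% and 2.67%, and the median log2 fold change was -0.07.

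Cell type markers were measured beside these genes, of smooth muscle and fibroblasts, of epithelial cells, and of leukocytes and endothelium. All samples were cultured T24 cells. The smooth muscle and fibroblast list of 10 genes summed to 1.07 to 1.58 RPKM in shRNA-NC and to 0.997 to 1.48 RPKM in shRNA-UBC9, with the defining MYH11 at most 0.061 and DES at most 0.144 RPKM. Its 2 tested genes reached the filter through 1 group each and so had to differ: PDGFRB had means of 0.764 RPKM in shRNA-NC and 0.202 RPKM in shRNA-UBC9, and COL1A1 of 0.377 and 0.818 RPKM. The 6 epithelial markers summed to between 938.1 and 1107.8 RPKM in shRNA-NC and to between 425.8 and 563.5 RPKM in shRNA-UBC9, with KRT7, KRT8, KRT18 and KRT19 called lower and CDH1 listed at 0 in 5 of 6 samples. EPCAM was the exception, with means of 0.658 and 1.5 RPKM, and was not called (log2 fold change 1.0, limma adjusted p = 0.098). The 5 leukocyte and endothelial markers summed to between 5.02 and 6.12 RPKM in shRNA-NC and to between 19.2 and 49.3 RPKM in shRNA-UBC9. CD68 alone made up this rise, with means of 2.65 RPKM in shRNA-NC and 32.2 RPKM in shRNA-UBC9. CDH5 was lower, with means of 2.87 and 0.619 RPKM. PTPRC, CD3E and PECAM1 were at most 0.102, 0.185 and 0.0707 RPKM. In bulk RNA, fewer cells of a kind and less RNA per cell cannot be told apart, and the part of the keratin decrease in the results above was not tested.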

How the data were processed

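Total RNA of T24 cells was made into poly(A) libraries with the Illumina TruSeq RNA kit, 3 per group. RPKM values per gene were deposited by the authors, who obtained them with the CLC Biomedical Genomics Workbench (GRCh38, default settings, trimmed reads). The annotation release, strand and handling of multi-mapping reads are not given in the sources used here. RPKM does not correct for RNA composition. The deposited files held no comparisons. The level of the targeted gene is not reported here.

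The 12428 genes that reached an RPKM of 0.5 in 3 or more samples were compared on log2(RPKM + 0.1) with limma 3.58.1 (R 4.3.3, intensity trend, Benjamini-Hochberg adjustment, 95% intervals). Family shares were compared by exact two-sided permutation tests (scipy 1.17.1). Reads were recovered as the largest steps that gave whole numbers in all 6 samples. If those numbers shared a factor, the reads are understated. They cover counting only. Limma voom on these reads called 4600 genes, beside 4576 by limma on RPKM. On simulated data with 12028 of the 12428 genes unchanged, 95% of 200 genes changed by 2 (log2) and 34.5% of 200 changed by 0.5 were called, and 0.2% of unchanged genes. In the real data 36.8% of genes were called, and the adjusted threshold depends on that share. The simulated rates therefore do not give the chance of a call in these data.

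The 10 genes and the lists were chosen with earlier results of these data known, so no list was tested as a set. Named are the 10 genes, family members and up to 5 called genes per list and direction. FAS, PCSK7, ACTA2-AS1, the marker genes and the uncalled or untested list genes were named after their values were seen. Alternatives were other pseudocounts and filters, quantile and median scaling, no trend, a replicate block and leaving out each sample, and, chosen after seeing the data, voom and the 4 libraries alone. Positions and overlaps are from GENCODE 44, promoters from RefSeq.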

Additional observations from a re-analysis of the deposited data

How the results depend on the processing

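Of 279 recomputed values, 261 kept their direction and side of the threshold or moved by less than the limits set. For family shares the limit was the larger of the group SDs, so small share differences could change sign and still count among the 261. In percentage points, CNN2 went from -0.243 to 0.56 without shRNA-NC replicate 2. MYL9 went from -0.276 to 0.288 without shRNA-UBC9 replicate 2. The number of the 10 genes called was 3 in most alternatives, 4 with median scaling, 5 with quantile normalization, and 3 to 4 with each sample left out. CNN2 joined in 4 alternatives (-0.32 with RPKM of at least 1 in all samples, -0.37 with quantile normalization, -0.36 with median scaling, -0.42 without shRNA-NC replicate 3) and TPM2 in 1 (-0.24 with quantile normalization). TPM1 turned from -0.14 to 0.02 without shRNA-NC replicate 2, and ranged from -0.23 to 0.02 with each sample left out. The cause was not tested. ACTA2 could not be tested where every sample had to reach an RPKM of 1. That filter, with fewer genes tested, left 5 immediate early genes called. Without any filter 5 upstream regulators were called in place of 9, with RHOB, RHOC, CAP1 and TMSB4X lost. Over all tested genes, 4576 were called, and 3034 to 4183 with a sample left out, fewest without shRNA-NC replicate 3. With the 4 libraries alone 2847 genes, 4 partners and 4 upstream regulators were called. Without the family member of highest RPKM, share differences in percentage points were -0.0855 for ACTA2, 2.2 for TPM2, 0.00781 for CNN1, 6.38 for CNN2 and 2.28 for TAGLN. Same-numbered samples did not deviate together (correlations -0.367, 0.073 and -0.17), so the numbers do not pair samples. The highest of the 9 correlations, 0.526, was between shRNA-NC replicate 1 and shRNA-UBC9 replicate 3. These are the libraries with ACTA1, CKM, HBB, CD3E and PTPRC at 0. With the replicate block, 3 of the 10 genes, 3374 of all genes, 6 partners, 7 upstream regulators and 8 immediate early genes were called, and the block changed no call among the 10 genes. Depth limits CNN1, with 1 to 4 reads a sample.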

Other observations

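As a description over 6 samples, with no test, the genes whose log2(RPKM + 0.1) ran most like that of SRF were DAXX (Pearson r 0.995), ZNF784 (0.993), XPO6 (0.987), TMED1 (0.986) and RPUSD1 (0.984). Those most like ACTA2 were FOCAD (0.995), FAM107B (0.994), TNFRSF21 (0.994), HAGLR (0.992) and AGTPBP1 (0.992). The points share the 6 libraries and their group means.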
